A study of Mus musculus with 30 samples.

Results

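The Slc1a3 locus was described across 10 lists of genotype-specific regions from microglia with or without Mir137. A region was counted as a member where it overlapped the Slc1a3 gene span extended by 10 kb, or where the protein-coding gene end nearest to its midpoint, within 100 kb, was an end of Slc1a3. This gave 19 members among 22399 listed regions. The members were chosen by the positions of the regions in all 10 lists, so their numbers and genotypes are given as a description and are not tested.

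Slc1a3 encodes GLAST (also called EAAT1), a sodium-dependent transporter that carries glutamate from the extracellular space into the cell. The gene is known best for its high expression in astrocytes, including the Bergmann glia of the cerebellum, where it limits how long glutamate acts at synapses. It is also used as an astrocyte marker, and expression in microglia has been described mainly after activation or injury. H3K27ac is a histone mark of active enhancers and promoters, and H3K4me3 one of active promoters. RNA polymerase II (Pol II) carries out the transcription of protein-coding genes, and its serine 5 phosphorylated form (Pol II Ser5P) gathers near gene starts. Pu.1 is a transcription factor of myeloid cells.

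The study profiled chromatin by CUT&Tag, where a transposase tethered to a bound antibody tags the DNA around it, in sorted primary microglia of C57BL/6J mice aged 8 weeks by the labels. All groups carried the tamoxifen-inducible Tmem119-CreERT2 allele, which the microglial marker gene Tmem119 drives, and received tamoxifen on 7 consecutive days from 7 to 8 weeks of age. The cWT groups were Mir137+/+ and the cKO groups Mir137loxP/loxP, with 3 replicates for each of 5 antibodies (30 samples in 10 groups). The series text gives 4 mice, and how these relate to the 3 replicates is not stated. Per the protocol, H3K27ac, Ser5P and total Pol II antibodies share a catalogue number, as do those to Pu.1 and H3K4me3.

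Each list stands for 1 antibody and genotype and holds no value per replicate, so no difference here could be set against the spread between samples. Depth and read counts are unknown. Where many cells are profiled together, a mark carried by fewer cells and less of the mark per cell cannot be told apart. No listed region lay within 10 kb of Mir137 (chromosome 3, 118433857 to 118433929), so the lists do not check the deletion and the genotypes are as labelled.

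Slc1a3 lies on the minus strand of chromosome 15 (GRCm38/mm10, 8634124 to 8710807, 76.7 kb), with its start site at 8710807. Exons, introns and UTRs were not annotated here. The 250 bases before the start site are shown because an H3K27ac region and a Ser5P region begin just downstream of them, and the mature miR-137 because its gene is the one deleted. Both are from RefSeq on GRCm38.p6, 5′ to 3′ on the strand of the gene. Capitals mark CCAAT (or its reverse complement ATTGG) and TATAAA (or TTTATA) in the first, and the seed, bases 2 to 8, in the second.
Slc1a3 upstream bases, chr15:8710808-8711057, minus strand: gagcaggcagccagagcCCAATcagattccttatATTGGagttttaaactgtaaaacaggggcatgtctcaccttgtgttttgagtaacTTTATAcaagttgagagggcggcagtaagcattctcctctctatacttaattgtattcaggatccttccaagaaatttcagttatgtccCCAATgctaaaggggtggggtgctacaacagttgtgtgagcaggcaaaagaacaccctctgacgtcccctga
mmu-miR-137-3p, chr3:118433901-118433923, plus strand: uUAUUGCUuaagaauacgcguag

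The upstream stretch held 44.8% G and C, against a median of 52.4% over 32851 RefSeq promoter windows of the same length, of which 24.5% were at or below it. It held 2 CG pairs, against a median of 6. CCAAT occurred 3 times on either strand, beginning 233, 216 and 72 bases before the start site. At least 1 CCAAT was present in 33.8% of the windows and at least 3 in 2.79%. TATAAA occurred once, on the opposite strand, 161 to 156 bases before the start site, and 12.4% of windows held it. GAGGAAG (a Pu.1-type core, in 10.6% of windows), TGANTCA (AP-1, in 6.75%) and AGCAATA (the match to the miR-137 seed, in 1.84%) were not among these letters on either strand. The Slc1a3 transcript and its UTRs were not searched for the seed match. Its absence here therefore says nothing on whether miR-137 targets Slc1a3.

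A long noncoding RNA gene, Gm31340, starts 219 bases from the Slc1a3 start site on the other strand and runs away from it (8711026 to 8864483). The 32 bases of the printed stretch that are farthest from Slc1a3 lie in Gm31340. A region at the Slc1a3 start therefore stands close to a gene start of either direction.

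At Slc1a3 the H3K27ac regions were mainly those of the cWT list, and every polymerase region was in a cKO list. The cWT H3K27ac list held 7 members and the cKO H3K27ac list 1. The cKO Pol II list held 5 and the cKO Pol II Ser5P list 6. The other 6 lists (cWT Pol II, cWT Pol II Ser5P, and both genotypes of H3K4me3 and Pu.1) held none, and the shares of protein-coding genes with at least 1 region in them were 2.16, 0.722, 5.62 (cWT H3K4me3), 8.47 (cKO H3K4me3), 0.187 (cWT Pu.1) and 4.96% (cKO Pu.1). Of the 19 members, 15 lay in the gene span, 2 within 10 kb of it and 2 were joined to it by the nearest gene end.

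**Figure D1:**
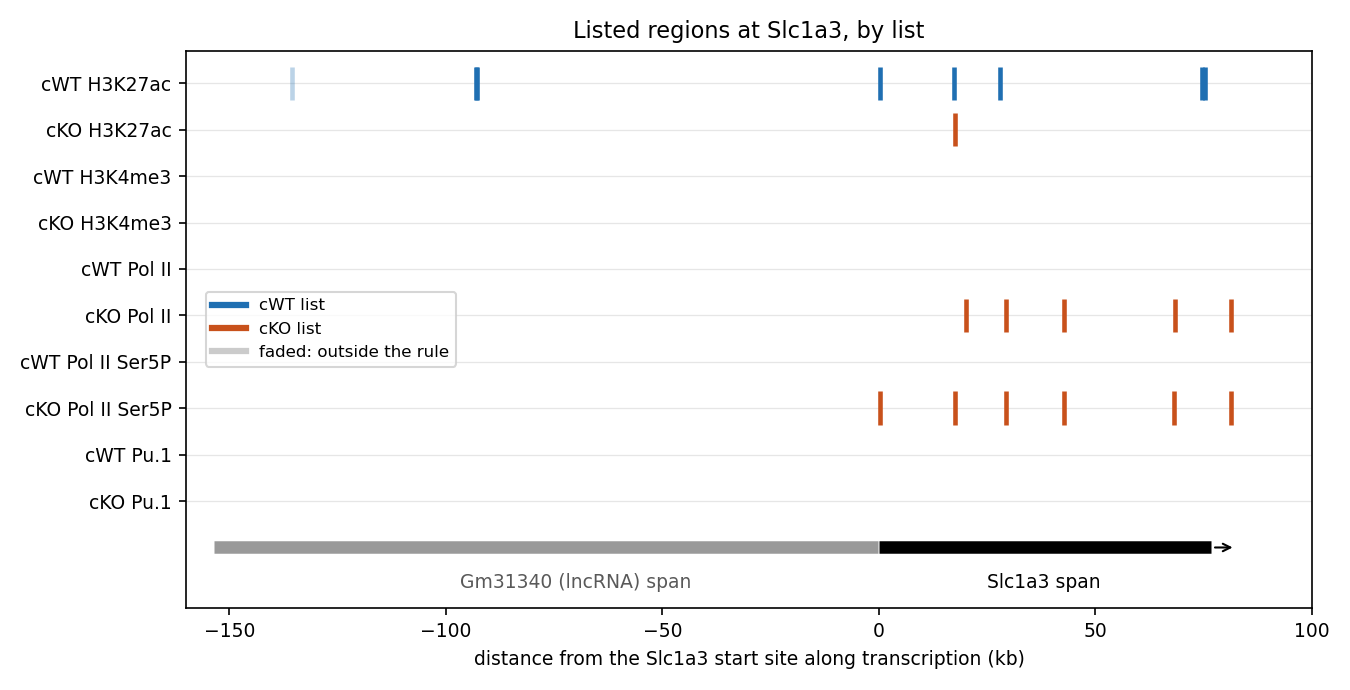
Each vertical bar is the midpoint of a listed region, placed by its distance in kb from the Slc1a3 start site along the direction of transcription, with 1 row per list, blue for cWT and orange for cKO, faded for the region outside the rule, with the spans of Slc1a3 and Gm31340 below. The 7 cWT H3K27ac regions (2 pairs drawn almost on top of each other) lie from 93.1 kb before the start to 75.4 kb into the gene, while the 5 Pol II and 6 Ser5P regions of the cKO lists lie between 0.291 and 81.4 kb after it.

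These directions are those of the lists as a whole, so the numbers were read against all 21887 protein-coding genes under the same rule. For H3K27ac, 23.6% of genes had regions of cWT alone, 1.82% of cKO alone and 2.49% of both, as Slc1a3 did. At least 1 region was found at 26.1% of genes in the cWT H3K27ac list, 22.4% in the cKO Pol II list and 27.9% in the cKO Ser5P list. For Pol II, 21.4% had regions in the cKO list only, and for Ser5P 27.4%. Regions in all of the cWT H3K27ac, cKO Pol II and cKO Ser5P lists were found for 1786 genes, or 8.16%. Among genes with any region of these antibodies, the genotype that dominated at Slc1a3 was the usual one.

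As many regions as at Slc1a3 were found at few genes. At least 7 regions of the cWT H3K27ac list were found at 37 genes (0.169%), at least 5 of the cKO Pol II list at 33 genes (0.151%), and at least 6 of the cKO Ser5P list at 29 genes (0.132%). At least 1 region of the cKO H3K27ac list was found at 4.31% of genes. Slc1a3 is a long gene, and a longer span can take in more regions. Among 4804 genes with spans of 0.5 to 2 times its length, the shares were 0.229%, 0.271% and 0.208% for the first 3 lists and 6.35% for the cKO H3K27ac list. Slc1a3 was the 1 gene with at least 7, 5 and 6 regions in those 3 lists together (0.00457% of genes). These 3 minimums are its own numbers, and the locus was chosen with them known, so nothing is read from that count or from the shares above. With touching regions joined, its 7 cWT H3K27ac regions are 5 stretches. At least 5 regions of that list, with touching ones not joined, were found at 0.681% of genes. Over all 10 lists, 14 genes (0.064%) had at least 19 regions.

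**Figure D2:**
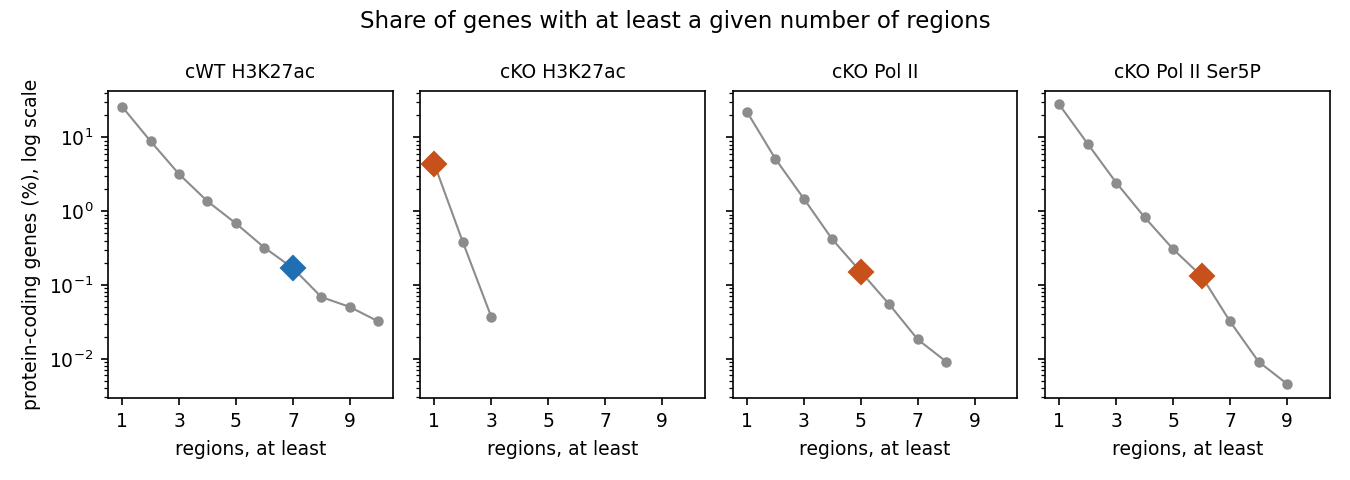
Grey points give the percent of protein-coding genes (log axis) with at least the number of regions on the horizontal axis in that list, and the diamond marks Slc1a3. Its 7 cWT H3K27ac, 5 cKO Pol II and 6 cKO Ser5P regions stand where 0.169%, 0.151% and 0.132% of genes had as many, and its single cKO H3K27ac region where 4.31% had one. Touching regions are counted singly, and joining them leaves 5 cWT H3K27ac stretches at Slc1a3.

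At the start of the gene, a cWT H3K27ac region of 533 bp (chr15:8710226-8710758) reached from 49 to 581 bases into Slc1a3. A cKO Ser5P region of 508 bp (chr15:8710262-8710769) covered nearly the same stretch, from 38 to 545 bases. They shared 497 bases, 97.8% of the shorter one. No region of total Pol II and none of H3K4me3 was listed there in either genotype. Both regions lay downstream of the bases printed above, and only 1 and 12 bases of them fell in the RefSeq promoter window, which runs to 50 bases past the start. H3K4me3 marks active promoters and Ser5P polymerase gathers near gene starts. Absence from these lists says that no genotype-specific region was listed, not that the mark or the polymerase was absent.

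Regions of 3 lists met 17 to 18 kb into the gene. A cKO H3K27ac region of 275 bp (chr15:8693084-8693358) and a cWT H3K27ac region of 344 bp (chr15:8693312-8693655) shared 47 bases, 17.1% of the shorter. A cKO Ser5P region of 494 bp (chr15:8693059-8693552) contained the whole cKO H3K27ac region and shared 241 bases with the cWT one. H3K27ac was thus listed as specific to each genotype at neighbouring, partly shared positions. Such contact between the 2 H3K27ac lists was found for 67 of the 847 cKO regions (7.91%) and 68 of the 6995 cWT regions (0.972%). At this site the lists do not give a single direction for H3K27ac.

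Deeper in the gene body and past its end, Pol II and Ser5P regions of the cKO lists came in pairs. The pair 29 kb into the gene (Pol II chr15:8681264-8681603, Ser5P chr15:8681124-8681534) shared 271 bases, and the pair at 43 kb (Pol II chr15:8667708-8668272, Ser5P chr15:8667691-8668196) shared 489. The pair at 68 kb (Pol II chr15:8642339-8642601, Ser5P chr15:8642521-8642785) shared 81 bases, 30.8% of the shorter region. The last pair (Pol II chr15:8629146-8629619, Ser5P chr15:8629340-8629693) lay about 4.5 kb beyond the 3′ end of the gene and shared 280 bases. In all, 4 of the 5 Pol II regions overlapped a Ser5P region of the same genotype, against 51.2% of the 4647 regions of that list. Of the 6 Ser5P regions, 4 overlapped Pol II, against 38.8% of 6163. The members of these lists without such a partner were the Pol II region 20.1 kb into the gene (chr15:8690545-8690919) and the Ser5P regions at the start site and at 17.5 kb, where H3K27ac was listed instead. Counts this small allow no statement about how Slc1a3 differs from other genes in this pairing.

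**Figure D3:**
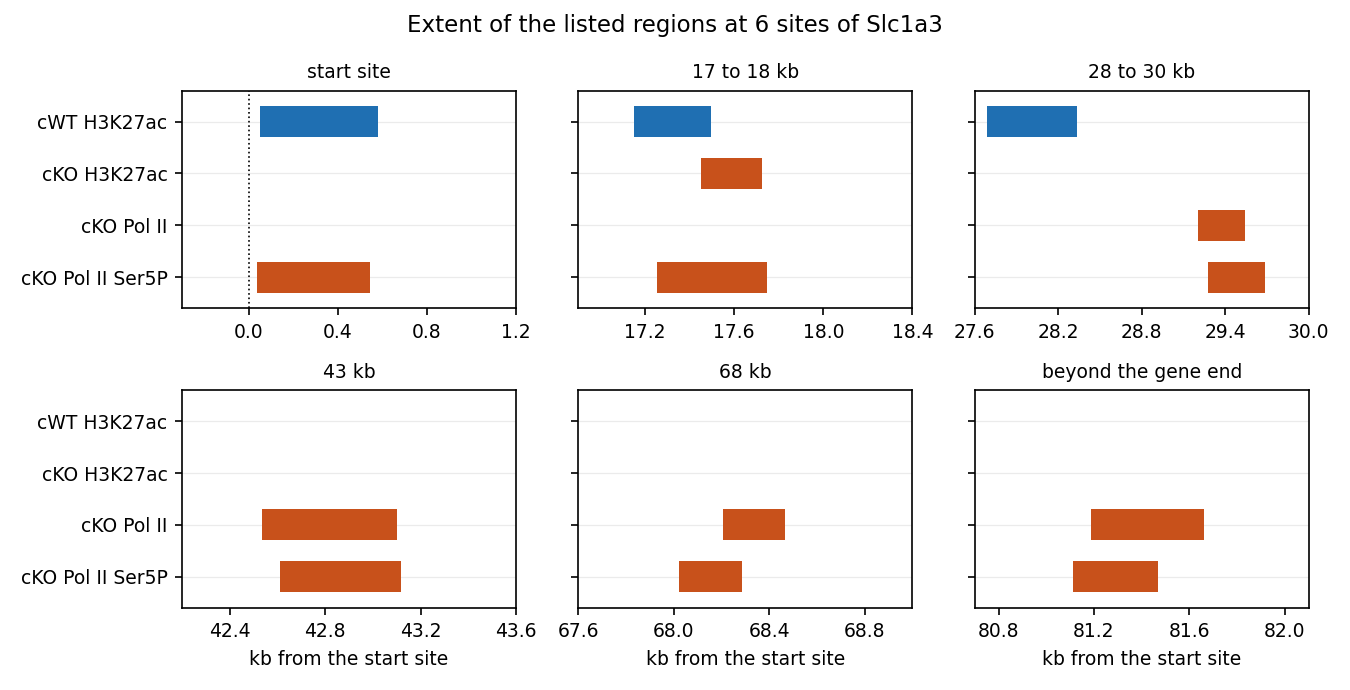
Bars show the extent of each listed region in kb from the start site at 6 places (blue cWT, orange cKO), and the dotted line is the start site. The cWT H3K27ac and cKO Ser5P bars nearly coincide at the start (497 shared bases), 3 bars meet at 17 to 18 kb, and Pol II and Ser5P bars overlap at the other 4 places, by 81 to 489 bases, with the H3K27ac bar at 28 kb standing 870 bases from the nearest Pol II bar.

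H3K27ac and polymerase shared 2 of these places and not the rest. The cWT H3K27ac region 28 kb into the gene (643 bp, chr15:8682474-8683116) overlapped no other region. It lay 870 bases from the nearest Pol II region and 939 from the nearest Ser5P region of the cKO lists. None of the 7 cWT H3K27ac regions overlapped a cKO Pol II region, against 9.96% over the list, and 2 overlapped a cKO Ser5P region, against 10.3%. With 7 regions, nothing is read from how these counts stand to the shares.

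The widest H3K27ac stretch stood at the other end of the gene. Regions of 734 bp (chr15:8635068-8635801) and 649 bp (chr15:8635802-8636450) of the cWT list touch without a gap and together cover 1383 bp, from 944 to 2326 bases inside the 3′ end. No polymerase region overlapped them. The nearest on either side were 5.37 kb away, beyond the gene end (Ser5P), and 5.89 kb away, inside the gene (Pol II). The last 2 members, of 207 and 248 bp (chr15:8803605-8803811 and chr15:8803812-8804059), touch as well and lie 92.9 and 93.1 kb before the Slc1a3 start. Both lie inside the span of Gm31340, and they belong to Slc1a3 only because that gene is noncoding and was left out of the assignment. The next region outward, chr15:8846201-8846428 of the cWT H3K27ac list, was 122 kb from the nearest protein-coding gene end, beyond the 100 kb limit, and is no member (deposited signal 15.2).

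The touching regions carry the same deposited signal within each pair, 14.6 at the 3′ end and 7.13 upstream. All 203 touching pairs of the cWT H3K27ac list had equal signals in the same way. If each pair is counted once, the list held 5 stretches at Slc1a3, not 7.

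By the values deposited with them, most members stood low in their lists. The deposited p-value, whose null hypothesis no source used here states, ran from 0.758 to 0.962 over the 19 members, and the lowest adjusted value was 0.971. None had p under 0.05, as 169 of all listed regions did. In rank by p within the list, 17 of the 19 fell in the lower 50%. The exceptions were the narrower cWT H3K27ac region of the 3′ end pair, at rank 3229 of 6995, and the Pol II region 29.4 kb into the gene, at rank 2079 of 4647. All 6 Ser5P regions had between 58.3 and 92.5% of their list ahead of them.

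The deposited signal, on a scale not stated, also placed 17 of the 19 in the lower 50%, but in another order. The Pol II region at 29.4 kb, with 44.7% of its list ahead by p, had 75.5% ahead by signal, and the one at 68.3 kb went from 82.4 to 59.1%. The touching pair at the 3′ end was in the upper 50% of the cWT H3K27ac list, with 23.9% of regions ahead of it, and the other 17 members were all in the lower 50% of theirs. The Pol II region at 20.1 kb had 98.3% of its list ahead (signal 5.57), and the Ser5P region at the start site 96.2% (signal 5.52). The H3K27ac region at the start site had 89.1% ahead (signal 7.24). The H3K27ac regions at 17 kb had signals of 9.8 (cWT) and 8.88 (cKO), with 65.7 and 67.1% of their own lists ahead, and the cWT region at 28 kb had 8.72. The Pol II members had signals from 5.57 to 11.2 and the Ser5P members from 5.09 to 9.78, against list medians of 12.4 and 11. Signals of different lists may not share a scale and were not compared. Widths gave yet another order. The 3′ end pair was among the wider H3K27ac regions (10.1 and 16.4% of the list wider), and the Ser5P region at the start site had 23.6% of its list wider.

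**Figure D4:**
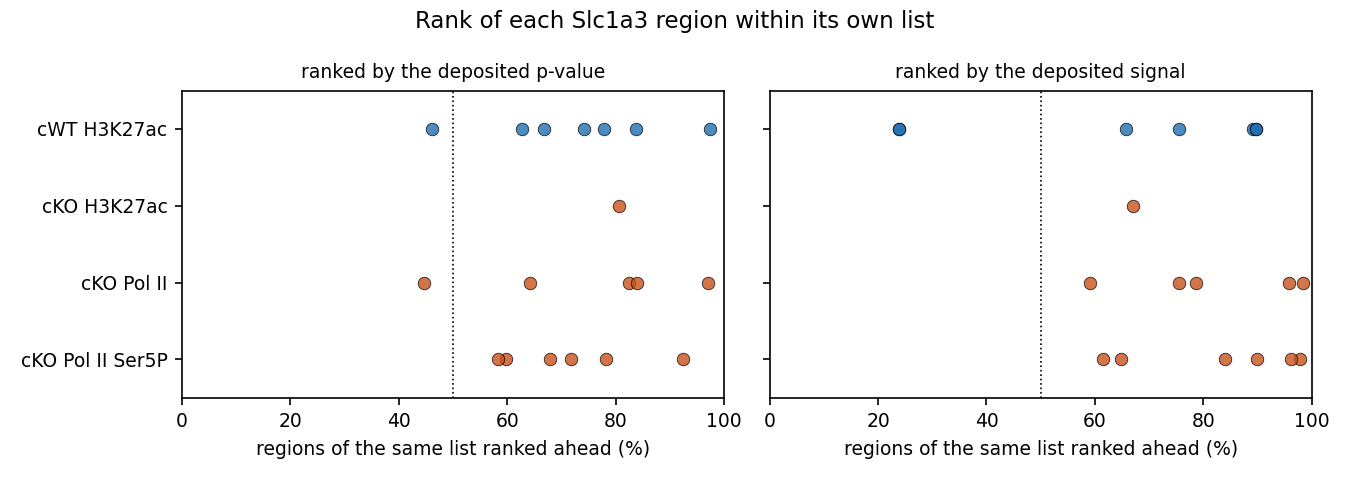
Each point is 1 of the 19 members, placed by the percent of its own list that ranks ahead of it by the deposited p-value (left) or by the deposited signal (right), with the dotted line at 50%. By p, 2 points stand left of the line, 1 of cWT H3K27ac and 1 of cKO Pol II, and by signal the 2 overlaid points left of it, at 23.9%, are the touching H3K27ac regions at the 3′ end.

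The names of the regions carry numbers that follow genome order within a list, and they show where numbers are skipped. The 5 Pol II regions are numbered 3133 to 3137 and the 6 Ser5P regions 2987 to 2992, with none skipped within these runs. Between the listed regions that flank these members, 5 Pol II and 2 Ser5P numbers are skipped. Over the genome the 2 lists hold 47.0 and 65.6% of their numbers. Such runs were not counted at other genes, and nothing is read from them. The 7 cWT H3K27ac regions run from 6378 to 6388 with 4 numbers skipped, 3 of them between the 3′ end pair and the region at 28 kb, and 1 between the start site and the pair upstream. In the cKO H3K4me3 list, which holds no member, 2 numbers are skipped between 8169412 and 8967801, a stretch that includes Slc1a3. No source used here states what a skipped number stands for.

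The neighbours of Slc1a3 shared no region with it. Each of the 6 had at least 1 region in some list, as did 49.6% of all protein-coding genes. On the 3′ side, Nipbl (the cohesin loader), LOC102634078 and Cplane1 each had 1 region of the cKO Pol II list. Nipbl, 169 kb from Slc1a3, and LOC102634078, which overlaps it in position, each also had 1 cKO Ser5P region, and both genes were given the same regions. Cplane1 also had 1 cKO H3K4me3 region. On the other side, Ranbp3l, 257 kb away, had 2 cWT H3K27ac, 2 cKO Ser5P and 1 cKO Pu.1 region, and 1 H3K4me3 region in each genotype. Nadk2 (a mitochondrial NAD kinase) and Skp2 (the substrate receptor of a ubiquitin ligase) had 1 cWT H3K27ac region each and 3 and 2 cKO Ser5P regions. None of these 6 genes had more than 3 regions in a list. At least 3 cKO Ser5P regions, as at Nadk2, were found at 2.44% of all protein-coding genes.

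Of the 6 other members of the SLC1 family, 3 had a region in some list, against 49.6% of all protein-coding genes. With 6 genes nothing is read from this count. Slc1a2, which encodes GLT-1, the other main glutamate transporter of astrocytes, had 1 cWT H3K27ac and 1 cKO Ser5P region. Slc1a1, the neuronal transporter EAAC1, had 1 cWT H3K27ac region, and Slc1a4, a carrier of neutral amino acids, had 1 cKO Pol II region. Slc1a5, Slc1a6 and Slc1a7 had none. Of 375 genes with a solute carrier symbol, 108 had at least 1 cWT H3K27ac region, against 26.1% of all protein-coding genes. After Slc1a3 with 7, the most was 5, at Slc16a10, Slc39a10 and Slc9a9. Slc1a3 also had 5 with touching regions joined, or with the upstream pair given to Gm31340. Its lead in that list therefore depends on how regions are counted. No other solute carrier gene had more than 4 regions in the cKO Pol II or the cKO Ser5P list. Slc1a3 was chosen with its own numbers known, and span lengths were not matched. Nothing is therefore read from its lead in these lists.

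Among genes that handle glutamate once it is inside the cell, Glul, glutamine synthetase, had 3 cWT H3K27ac, 3 cKO Pol II and 2 cKO Ser5P regions, the most of the 54 genes listed for glutamate handling. Of the 10 genes of glutamine and glutamate metabolism, 6 had regions in the cKO Pol II list only, 5 in the cKO Ser5P list only and 3 in the cWT H3K27ac list only, Slc38a1 (a glutamine transporter) and Got1 (a transaminase) among the last. The same patterns were found at 21.4, 27.4 and 23.6% of all protein-coding genes, and with 10 genes nothing is read from these counts about the pathway. In the group of cystine-glutamate exchange and glutathione synthesis, all 5 genes had a region in some list, as did 49.6% of all protein-coding genes. Slc7a11, the exchanger that releases glutamate for cystine, had 2 cWT H3K27ac, 1 cKO H3K27ac, 1 cKO Pol II and 1 cKO Pu.1 region, and Gclc, the catalytic subunit of the first glutathione enzyme, had 4 cKO Ser5P regions.

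Receptors and vesicular transporters had few regions. None of the 8 metabotropic receptors and none of the 3 vesicular transporters had any, and 5 of 16 ionotropic receptor genes did, with 1 region in a list at most (Grik4 in cWT H3K27ac, Grik5 in cWT H3K4me3 and cKO Ser5P, Grik3 in cWT Pol II, Grin2b and Grin2c in cKO Ser5P). Of the 6 Na,K-ATPase genes, whose pump maintains the sodium gradient the transporter uses, 4 had a region, Atp1b3 with 2 in the cWT H3K27ac list. These counts are over any list, where the share of all protein-coding genes was 49.6%. Over all 54 genes, 20.4% had a cWT H3K27ac region, 18.5% a cKO Pol II region and 22.2% a cKO Ser5P region. The shares over all protein-coding genes were 26.1, 22.4 and 27.9%. In the cWT H3K4me3 list the share was 9.26%, against 5.62% of all genes. These gaps are of a few genes each and are not read as a difference. None of the 54 genes had more than 8 over all lists, against 19 at Slc1a3. That gene was chosen with its number known, and span lengths were not matched, so nothing is read from this contrast.

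Because Slc1a3 is itself an astrocyte marker, markers of the cell types that a microglial sort could hold were counted in the same way. Of 12 microglial markers, 11 had a region in some list (all but Trem2), against 49.6% of all protein-coding genes. Of 12 astrocyte markers 5 did, of 8 oligodendrocyte markers 4, of 8 neuronal markers 1, of 6 markers of border-associated macrophages 3 and of 4 monocyte markers 2. The astrocyte markers together had 3 cWT H3K27ac regions (Slc1a2 and Slc4a4 among their genes), 3 cKO Pol II regions (Gfap, Aldh1l1 and Slc4a4) and 2 cKO Ser5P regions (Slc1a2 and Aldh1l1), and none in the other 7 lists. Aqp4, Gja1, Aldoc, Fgfr3, Gjb6, S100b and Sox9 had no region in any list. In the same 3 lists the microglial markers had 20, 11 and 10 regions and the oligodendrocyte markers 6, 4 and 3. Of the latter, Mbp had 3, 3 and 2. The remaining marker groups had no more than 3 in any of these lists. The lists hold genotype-specific regions and not levels, so they do not give the share of astrocytes or oligodendrocytes among the sorted cells. The part of such cells in the Slc1a3 regions was not tested.

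The genes with the pattern most like that of Slc1a3 were found by the sum of absolute differences over the 10 region counts. Prex1 (an activator of Rac GTPases) and Bach2 (a transcriptional repressor) were nearest, at a sum of 3. Prex1 had 5 cWT H3K27ac, 1 cKO H3K27ac, 5 cKO Pol II, 6 cKO Ser5P and 1 cKO Pu.1 region, and Bach2 had 6, 0, 5, 6 and 1. Lhfpl2 and Rptor (the Raptor subunit of mTORC1) followed at a sum of 4, and Ubac2 at 5, a value at which 11 genes stood or lay nearer. All 5 are longer than Slc1a3, at 138 to 348 kb. The likeness is one of counts over 10 lists and is a description. By cosine similarity, which ignores the total, none of these 5 was among the nearest 5 (Prkch, Vsir, Chd9, Dhrs3 and Ppp3ca), so the order of likeness depends on the measure. Chd9 is also at a sum of 5, the same as Ubac2, and was placed after it only by the difference in span length.

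**Figure D5:**
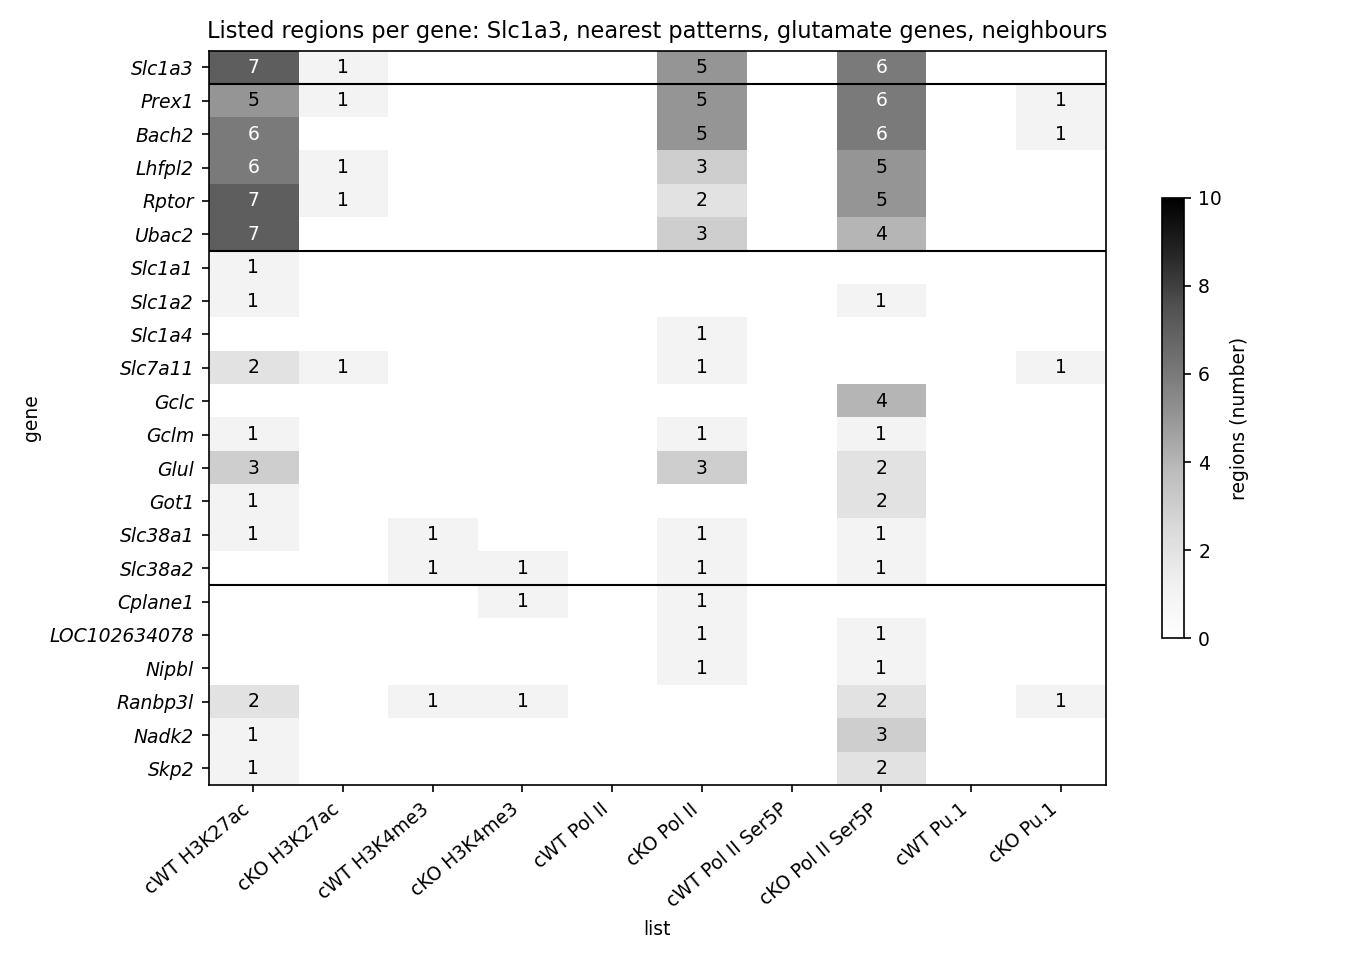
Each cell gives the number of listed regions of a gene (row) in a list (column), blank where it is 0, with lines between Slc1a3, the 5 genes of most similar counts, 10 genes of glutamate transport and metabolism and the 6 neighbouring protein-coding genes. Slc1a3 (7, 1, 5 and 6 regions) resembles Prex1 and Bach2, while no glutamate gene exceeds 4 in a list and no neighbour exceeds 3. Slc1a3 was chosen with its numbers known, so nothing is read from the contrast with these genes.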

How the data were processed

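The members, lists and alternatives were chosen with earlier results of these data known. The authors deposited 10 lists, 1 per antibody and genotype, giving each region 4 values: signal, score, p-value and q-value (adjusted p). Per the submitters' processing notes, the tools were HOMER 4.11, bedtools 2.30.0, MACS2 2.2.7.1 and Bowtie2 2.4.4 on mm10 (GRCm38), with no roles stated. No source used here states how replicates were combined, how a region became genotype-specific or what the p-value tests. The deposited score of all 22399 regions equals -125 log2(p), cut to a whole number and at most 1000, so it was not used further. The deposited signal was ranked within a list only.

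Positions count from 1. The same rule was applied to 21887 protein-coding RefSeq genes (GRCm38.p6), and the locus rule was tested on simulated regions. Named genes were the nearest 3 neighbours on each side, the 5 genes of most similar counts (ties by span length) and, for every list of regions, the 4 members of a gene list with the most regions. All 104 gene list entries matched. The solute carrier comparison was added after its values were seen, and the 5 genes nearest by cosine similarity are named although they fall outside this rule. The promoter windows and the miRNA came from RefSeq sequence tables, and sequences of the listed regions and proteins were not used here. Overlap means at least 1 shared base. No test was run. Calculations used Python 3.11.15, numpy 2.4.6 and pandas 2.3.3, with figures from matplotlib 3.10.9. The gene list counts include genes that are not named, and some results for single genes are not reported here.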

Additional observations from a re-analysis of the deposited data

How the results depend on the processing

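The total of 19 regions (12 cKO and 7 cWT) stayed between 14 and 19 under 9 of 11 alternatives. These changed the window, the distance limit, the genes that compete, the reference point, merging or the minimum width. In each of them cKO regions outnumbered cWT ones, but the lists differ in size. The cKO Pol II and Ser5P lists held 4647 and 6163 regions, against 394 and 127 for cWT, and for H3K27ac cWT had 6995 and cKO 847. The cKO excess is therefore not read as a trait of the locus. The numbers in the upper 50% of each list by p were 2 in all, 1 for H3K27ac, 1 for Pol II and 0 for Ser5P, and with p under 0.05 all were 0. Without regions under 300 bp H3K27ac fell from 8 to 5, all cWT, so the cKO region was lost. With all RefSeq genes in the assignment H3K27ac had 6, since the upstream pair went to Gm31340. The joining of touching regions, added after the data were seen, also gave 6. H3K4me3 and Pu.1 stayed at 0 throughout. The 8 overlapping pairs became 6 with 50% of the shorter region and 10 within 1 kb. Of the 5 genes of similar counts, 0 remained under cosine similarity, although Chd9, named there, tied with the fifth. No paired analysis was possible because the lists carry no replicates, and no replicate could be left out.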
